A study of Mus musculus with 16 samples.

Results

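Of the 12661 RUNX2 peaks called in undifferentiated MC3T3-E1 cells outside the mitochondrial chromosome, 359 (2.84%) overlapped no region of acetylated histone H4 lysine 5 (H4K5Ac) in the same cells. These 359 sites were selected on the H4K5Ac peak list alone, by an overlap of less than 1 bp, and the other 12302 RUNX2 peaks, all of which touched an H4K5Ac region, served as the comparison. MC3T3-E1 is a mouse pre-osteoblast line, and chromatin immunoprecipitation followed by sequencing (ChIP-seq) was used to map where each protein or histone mark lies on DNA. The 16 samples were 7 antibodies (RUNX2, C/EBPβ, H4K5Ac, H3K9Ac, H3K4me1, H3K4me3 and H3K36me3) and an input in each of 2 states, and each antibody and state is represented by 1 merged peak list. The cells, at passages 5 to 12, were either undifferentiated or had spent 15 days with 50 µg/mL of ascorbic acid and 10 mM of glycerol-2-phosphate in the medium. Both states carried no genetic change named in the labels and received ethanol vehicle for 3 h, and homogenisation with a sucrose step freed the differentiated cells of their mineralised matrix before the ChIP. The 2 inputs were not analysed here, and 1 of them, from differentiated cells, is labelled as treated with 100 nM 1,25-dihydroxyvitamin D3. The treatment label of the differentiated H3K36me3 sample is garbled, so its state was taken from its title, and the protocol text writes H3K5Ac where the antibody label reads H4K5Ac.

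RUNX2 is the runt-domain transcription factor without which osteoblasts do not form, and it binds DNA together with its partner CBFβ at a short sequence read as TGTGGT. It recruits both activators, among them histone acetyltransferases, and repressors such as the Groucho proteins TLE1 and TLE4 and histone deacetylases. H4K5Ac and H3K9Ac are acetylation marks of active enhancers and promoters, H3K4me1 lies at enhancers whether or not they are active, H3K4me3 marks active promoters and H3K36me3 marks transcribed gene bodies.

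The following sequences, from the mouse assembly NCBIM37 (mm9), plus strand, show the DNA of sites outside H4K5Ac. The first 6 hold the RUNX motif TGTGGT and were present in both states, Pou2f2 and Gal3st1 lack it and were also present in both, and Hs6st1 has the largest number of motifs among the 359 and was picked after its values were seen. Capitals mark TGTGGT or its reverse complement ACCACA, and in Pou2f2 and Gal3st1 the related letters TGCGGT. Each is the whole 201 bp peak, named by the gene with the nearest transcription start site (TSS). Their positions are chr1:74002920-74003120 (Tns1, intron), chr1:93771244-93771444 (Hdac4, intergenic), chr2:29437911-29438111 (Rapgef1, intergenic), chr2:132796592-132796792 (Fermt1, intergenic), chr4:71856181-71856381 (Tle1, intron), chr11:76490604-76490804 (Tusc5, intergenic), chr7:25918160-25918360 (Pou2f2, promoter), chr11:3901703-3901903 (Gal3st1, intergenic) and chr1:36154338-36154538 (Hs6st1, intron).
Tns1: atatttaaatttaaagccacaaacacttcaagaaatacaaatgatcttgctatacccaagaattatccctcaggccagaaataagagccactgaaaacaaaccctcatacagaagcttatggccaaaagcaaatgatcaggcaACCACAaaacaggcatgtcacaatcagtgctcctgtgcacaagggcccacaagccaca
Hdac4: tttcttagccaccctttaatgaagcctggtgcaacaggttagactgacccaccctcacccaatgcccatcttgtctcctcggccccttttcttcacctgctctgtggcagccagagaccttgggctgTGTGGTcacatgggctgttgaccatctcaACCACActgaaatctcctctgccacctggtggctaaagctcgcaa
Rapgef1: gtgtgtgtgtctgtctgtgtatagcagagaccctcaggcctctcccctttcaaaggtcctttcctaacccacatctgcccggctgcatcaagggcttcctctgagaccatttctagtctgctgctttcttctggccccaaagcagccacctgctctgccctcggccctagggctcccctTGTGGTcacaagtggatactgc
Fermt1: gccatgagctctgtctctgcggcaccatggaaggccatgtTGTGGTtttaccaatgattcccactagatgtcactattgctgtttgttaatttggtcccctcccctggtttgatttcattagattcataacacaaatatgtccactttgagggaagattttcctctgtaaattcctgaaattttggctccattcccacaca
Tle1: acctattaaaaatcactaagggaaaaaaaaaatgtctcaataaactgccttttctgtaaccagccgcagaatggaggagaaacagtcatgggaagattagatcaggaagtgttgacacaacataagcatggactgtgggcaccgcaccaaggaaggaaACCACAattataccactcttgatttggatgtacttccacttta
Tusc5: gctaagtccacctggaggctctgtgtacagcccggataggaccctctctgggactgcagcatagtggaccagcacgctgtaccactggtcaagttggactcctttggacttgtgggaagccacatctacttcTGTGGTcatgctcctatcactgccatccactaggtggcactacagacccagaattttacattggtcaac
Pou2f2: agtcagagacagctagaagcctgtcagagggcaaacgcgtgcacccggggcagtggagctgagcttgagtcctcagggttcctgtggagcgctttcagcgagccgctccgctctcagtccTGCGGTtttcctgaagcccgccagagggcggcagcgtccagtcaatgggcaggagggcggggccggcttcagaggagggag
Gal3st1: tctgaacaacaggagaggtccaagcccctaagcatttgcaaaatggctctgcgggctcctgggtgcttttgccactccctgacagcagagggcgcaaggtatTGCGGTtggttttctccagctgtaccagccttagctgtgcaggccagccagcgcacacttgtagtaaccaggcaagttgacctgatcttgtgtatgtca
Hs6st1: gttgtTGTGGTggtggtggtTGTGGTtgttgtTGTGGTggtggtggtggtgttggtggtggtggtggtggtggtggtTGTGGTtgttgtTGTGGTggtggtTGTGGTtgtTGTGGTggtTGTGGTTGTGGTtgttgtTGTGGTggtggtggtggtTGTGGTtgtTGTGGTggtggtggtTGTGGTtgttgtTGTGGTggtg

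Most of the sites lay many kilobases from H4K5Ac. Their median distance to the nearest H4K5Ac region was 21.7 kb, with quartiles of 8.39 and 66.8 kb. Only 7 of the 359 lay within 1 kb of a region, and 62 lay over 100 kb away. The members closest to the threshold were 41 and 159 bp from a region. On the other side of it, 8 peaks overlapped a region in part, the smallest overlaps being 37 and 44 bp, and the other peaks inside H4K5Ac lay in a region in full. The site farthest from any H4K5Ac region was 2.11 Mb away, in an intron of Chl1, a neural cell adhesion gene.

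Most of the sites held the RUNX motif, and more often than the RUNX2 peaks inside H4K5Ac. The letters TGTGGT, read on either strand in the 100 bp to each side of the centre, occurred in 282 of 359 sites, which is 78.6% (95% interval 73.9 to 82.7), against 51.6% of all 12661 RUNX2 peaks. Inside H4K5Ac the share was 50.8% (6248 of 12302), so that the sites outside were higher by 27.8 percentage points (23.1 to 31.8). Shares are given with exact Clopper-Pearson intervals and differences with Newcombe intervals. These cover counting error only, they were not adjusted for the number of comparisons, and with 1 merged list per antibody and state no replicate check was possible. In windows of the same length centred 1 kb to each side, the motif was in 16.4% around the sites and in 14.9% around the peaks inside H4K5Ac.

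The difference in motif share was smaller but remained when promoters were set aside. Without peaks within 1 kb of a TSS, 80.5% of 334 sites and 60.5% of 9045 peaks inside H4K5Ac held TGTGGT, a difference with an interval of 15.3 to 24.0 points. With peaks that overlapped C/EBPβ left out as well, the shares were 80.0% and 61.5%, a difference of 18.5 points (13.5 to 22.8). The motif lay near the centre in both groups, at a median of 28 bp from it in the sites outside and 31 bp in the peaks inside.

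**Figure D1:**
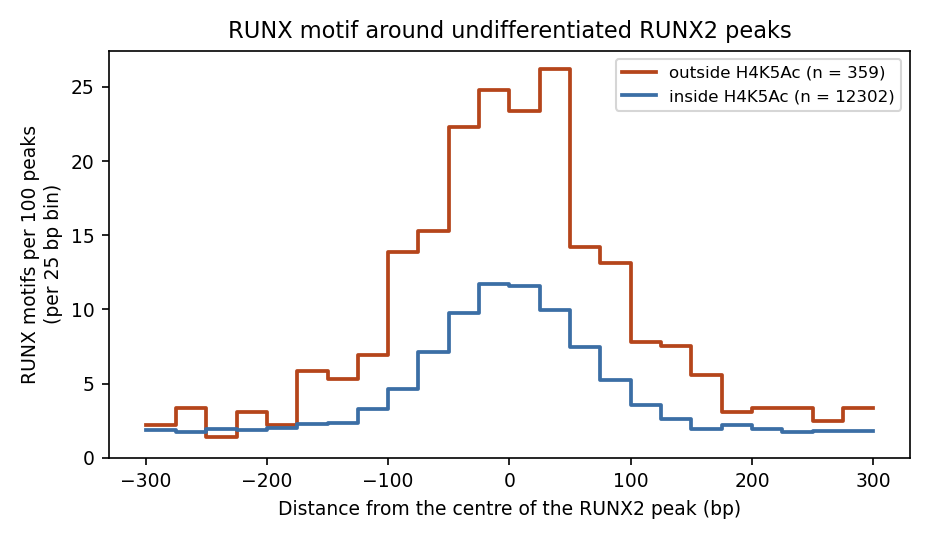
RUNX motifs (TGTGGT on either strand) per 100 peaks in 25 bp bins, by distance from the RUNX2 peak centre in bp, for the 359 sites outside H4K5Ac and the 12302 peaks inside. The sites outside reach 26.2 motifs per 100 peaks in the highest bin and the peaks inside 11.7, while beyond 200 bp every bin of both groups holds at most 3.34.

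Longer forms of the motif showed the same order. TGTGGTT, which extends TGTGGT by a letter, was in 54.6% of the sites and 29.0% of the peaks inside H4K5Ac. The form TGTGGTTT was in 34.0% and 15.8%. The related form TGCGGT, which cannot match at the same place as TGTGGT, was in 15.3% and 13.6%, a difference whose interval included 0 (1.67 points, -1.74 to 5.81). Among peaks without TGTGGT, however, TGCGGT was in 26 of 77 sites (33.8%) and in 20.8% of the peaks inside, a difference of 12.9 points (3.31 to 24.1). One or the other was present in 308 of the 359 sites (85.8%) and in 61.0% of the peaks inside. These longer and variant forms were searched after the first results had been seen.

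The sites also held more motifs each. At least 2 copies of TGTGGT were found in 135 sites (37.6%), against 13.9% of all RUNX2 peaks and 13.2% of those inside H4K5Ac. By number, 77 sites held none, 147 held 1, 86 held 2, 23 held 3 and 26 held 4 or more. The last class made up 7.24% of the sites and 0.325% of the peaks inside. In the Hs6st1 intron, a heparan sulfate 6-O-sulfotransferase gene, the 14 motifs stand in a tandem run of GGT-rich repeats, as the printed sequence shows. Of the 26 sites with 4 or more motifs, 14 held sequence that occurs elsewhere in the genome. Among peaks made only of sequence found once, 12 of 288 sites (4.17%) and 0.200% of the peaks inside H4K5Ac had 4 or more.

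**Figure D2:**
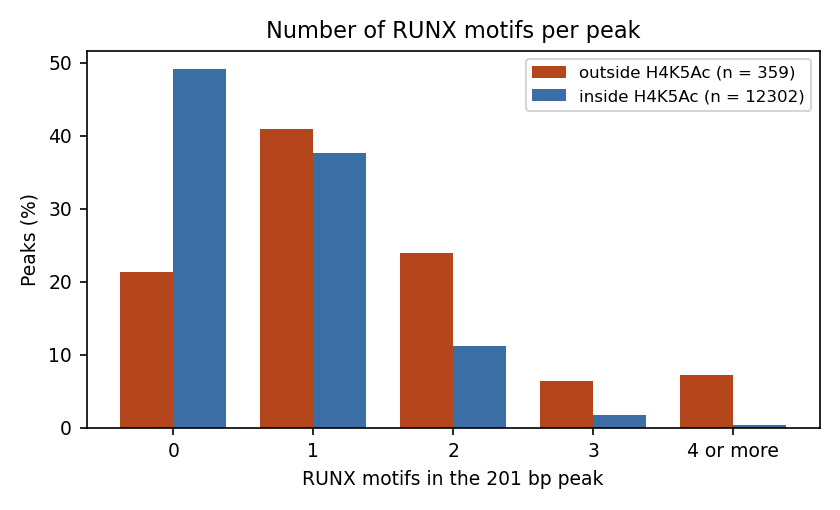
Share of peaks (%) by the number of TGTGGT motifs in the 201 bp RUNX2 peak, for the 359 sites outside H4K5Ac and the 12302 peaks inside. No motif was found in 21.4% of the sites and 49.2% of the peaks inside, while 2 motifs were found in 24.0% and 11.2%.

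Other motifs did not show this excess, with the exception of a longer CTCF motif and, on 4 sites only, a REST element, both searched later. The C/EBP motif TTGCNNAA was in 9.47% of the sites and 8.86% of the peaks inside H4K5Ac, a difference whose interval included 0 (0.610 points, -2.05 to 4.12). The AP-1 motif TGANTCA was lower in the sites (8.64% against 12.6%), as was the TEAD motif GGAATG (16.7% against 22.4%). CCCTC, the short CTCF core and the only CTCF motif of the first search, was lower as well (36.8% against 46.8%, -9.99 points, -14.9 to -4.81). The ETS motif ACTTCCGG was in 0 of 359 sites and in 2.04% of the peaks inside. A count of 0 of 359 allows a share of up to 0.836%, taken as 3 counts, or 1.02% by the exact interval. The NF1 palindrome was in 0 of 359 sites and in 0.0488% of the peaks inside. The REST half-element TTCAGCACC was in 4 sites (1.11%, 0.304 to 2.83) and in 0.219% of the peaks inside, a difference of 0.895 points (0.207 to 2.61).

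The longer motif of CTCF, the insulator protein that anchors chromatin loops, was in 15 sites (4.18%, 2.36 to 6.80), against 0.932% of all RUNX2 peaks. Inside H4K5Ac it was in 0.837%, a difference of 3.34 points (1.70 to 5.95), and in windows 1 kb from the sites it was in 0.139%. The RUNX motif stood in 12 of these 15 sites as well, and 14 of the 15 were made of sequence found once in the genome. Examples are GCCACCTGGTGG at chr1:93771420-93771431 in the Hdac4 site, CCACTAGGTGGC at chr11:76490762-76490773 in the Tusc5 site and GCCCCCTGGTGG at chr17:66804104-66804115 near 1110012J17Rik. These sites are also named below and were present in both states, as were others of the 15. Of the 15, 6 were also RUNX2 peaks after differentiation, against 85 of the 344 sites without the motif, and the interval of that difference included 0 (15.3 points, -5.45 to 39.9). The CTCF and REST motifs were searched after the first results had been seen, and no antibody to CTCF was among those analysed.

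Of the histone marks, H3K4me1 was the only one found at most of the sites. In undifferentiated cells 216 of 359 sites (60.2%, 54.9 to 65.3) lay in an H3K4me1 region, against 96.7% of all RUNX2 peaks and 97.7% of those inside H4K5Ac (difference -37.6 points, -42.7 to -32.6). The list of H3K4me1 regions covered 13.4% of the genome. The shares of the other marks at the sites are set here beside the share of the genome that each covers. Those genome shares, that of H3K4me1 among them, are of the whole genome, while the sites lie by choice outside the 13.3% in H4K5Ac. Coverage of the genome outside H4K5Ac was not computed, so the pairs cannot tell whether a mark stands at its background there. H3K9Ac was at 7 sites (1.95%), with 2.05% of the genome covered, 54.9% of all RUNX2 peaks and 56.5% of those inside H4K5Ac. H3K4me3 was at 3 sites (0.836%), with 1.03% of the genome covered, 24.4% of all RUNX2 peaks and 25.1% of those inside. H3K36me3 was at 43 sites (12.0%), with 13.8% of the genome covered, 23.9% of all RUNX2 peaks and 24.3% of those inside. The H3K9Ac and H3K4me3 shares rest on few sites and moved with the definition of outside. At 1 kb or more from H4K5Ac they were 1.14% and 0.284%, and with only the 75% of H4K5Ac regions with the highest score they were 5.27% and 1.53%, all of them below the shares inside H4K5Ac.

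By combination, 184 sites lay in H3K4me1 alone, 26 in H3K4me1 and H3K36me3, 17 in H3K36me3 alone and 124 (34.5%) in none of the marks. The other 8 had H3K9Ac or H3K4me3, and 6 of these were also in H3K4me1. The H3K4me1 regions that held the sites ranked low in that list and were narrow. By the authors' deposited score, which was used here only to rank regions of a list against each other, the 216 sites lay in 214 regions with a median rank at the 36.8 percentile of the list (quartiles 21.7 and 59.3). For RUNX2 peaks inside both marks the median was the 89.6 percentile (74.0 and 96.8). The median width of the host regions was 2924 bp at the sites, 12816 bp at the peaks inside H4K5Ac and 4290 bp over all H3K4me1 regions. H3K4me1 regions outside H4K5Ac were not examined as a group, and the part that the choice of sites has in these contrasts was not tested.

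The same order held with the lists from differentiated cells, which were not used to choose the sites. H4K5Ac is the mark of that choice in the same cell line, so its share after differentiation is not independent of the choice. H4K5Ac reached 46 sites (12.8%, 9.54 to 16.7), against 93.9% of all RUNX2 peaks and 96.3% of those inside H4K5Ac beforehand. The list covered 10.3% of the whole genome, and coverage outside the H4K5Ac of undifferentiated cells was again not computed. H3K9Ac was at 15 sites (4.18%), with 3.38% of the genome covered and 77.0% of all RUNX2 peaks in it. H3K4me1 was at 258 sites (71.9%, 66.9 to 76.5), with 13.4% of the genome covered and 98.3% of all RUNX2 peaks in it. H3K4me3 was at 3 sites (0.836%) and 23.7% of all RUNX2 peaks, and H3K36me3 at 39 sites (10.9%) and 22.7%.

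**Figure D3:**
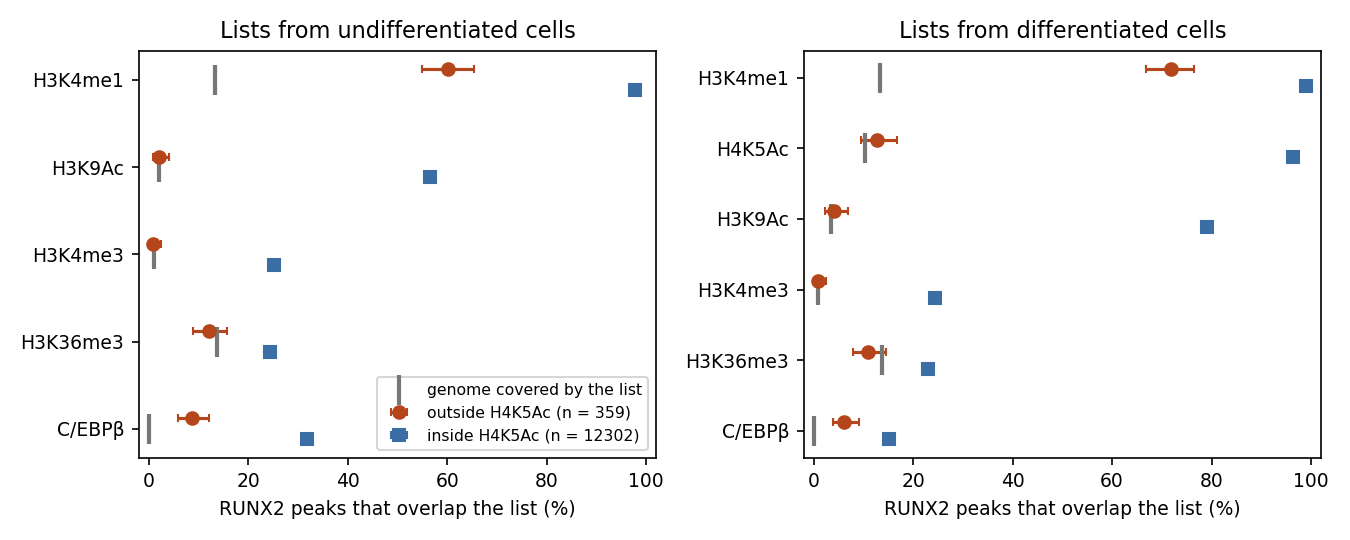
Share (%) of RUNX2 peaks of undifferentiated cells that overlap each list, for the 359 sites outside H4K5Ac (circles) and the 12302 peaks inside (squares), with exact 95% intervals. Grey bars give the share of the whole genome, H4K5Ac regions included, that each list covers. At the sites H3K4me1 stands at 60.2% and 71.9%, with 13.4% of the genome covered, while H3K9Ac and H3K4me3 stand at no more than 4.18%, values that rest on few sites and vary with the definition of outside.

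Site by site, H3K4me1 was in both states at 197 sites, in undifferentiated cells only at 19, in differentiated cells only at 61 and in neither at 82. H3K9Ac was in both at 7 sites and in differentiated cells only at 8. H3K36me3 was in both at 37, lost at 6 and gained at 2. In no mark in either state were 68 sites (18.9%, 15.0 to 23.4), of which 49 held TGTGGT and 10 were RUNX2 peaks again after differentiation. None of the 12302 peaks inside H4K5Ac could be in this class, by the way the groups were formed.

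On differentiation, fewer of the sites outside H4K5Ac than of those inside were found again. Of the 359, 91 (25.3%, 20.9 to 30.2) overlapped a RUNX2 peak of the differentiated cells, against 36.5% of all RUNX2 peaks. Inside H4K5Ac the share was 36.8% (4525 of 12302), and the difference was -11.4 points (-15.7 to -6.61). Without promoters the shares were 25.1% and 39.8%. Among peaks in H3K4me1 they were 29.2% and 37.2%, a difference of -7.99 points (-13.7 to -1.55). Among peaks outside H3K4me1 they were 19.6% and 20.5%, and the interval of the difference included 0 (-0.923 points, -8.57 to 7.53). The 278 peaks inside H4K5Ac but outside H3K4me1 were mostly promoters (61.9%), against 8.39% of the 143 sites outside both marks, and held TGTGGT in 33.1% against 76.2%.

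Peaks with a RUNX motif were kept more often inside H4K5Ac, and no such difference could be seen outside it. Inside, 42.5% of the peaks with TGTGGT and 30.9% of those without were found again (11.7 points, 9.98 to 13.4). Outside, the shares were 25.9% of 282 and 23.4% of 77, and the interval included 0 (2.51 points, -9.09 to 12.2). The difference between these differences was not tested. With 2 or more motifs, 35 of 135 sites (25.9%) were kept, and with 1 motif 38 of 147 (25.9%).

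Sites under 5 kb from an H4K5Ac region were kept more often than those at 50 kb or more. Kept were 18 of the 50 sites under 5 kb from a region (22.9% to 50.8%) and 27.5% of the 120 from 5 to 20 kb. From 20 to 50 kb the share was 24.4% of 78 sites, and at 50 kb or more 18.9% (12.1 to 27.5) of 111. The nearest and the farthest class differed by 17.1 points (2.62 to 32.3), and neighbouring classes did not differ beyond their intervals. The share in H3K4me1 took the same order, at 74.0%, 65.0%, 62.8% and 46.8%. The share in H4K5Ac after differentiation was 16 of 50, then 15.0%, 7.69% and 5.41%. Between the nearest and the farthest class these differed by 27.2 points (10.8 to 40.7) and 26.6 points (13.9 to 40.7). The RUNX motif did not follow distance, at 82.0%, 76.7%, 79.5% and 78.4%. These classes were set after the first results had been seen, and their distances come from the H4K5Ac list by which the sites were chosen. Inside H4K5Ac, the kept share was 32.1%, 33.7%, 38.7% and 42.6% in 4 classes of nearly equal size, from the lowest to the highest score of their H4K5Ac region.

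**Figure D4:**
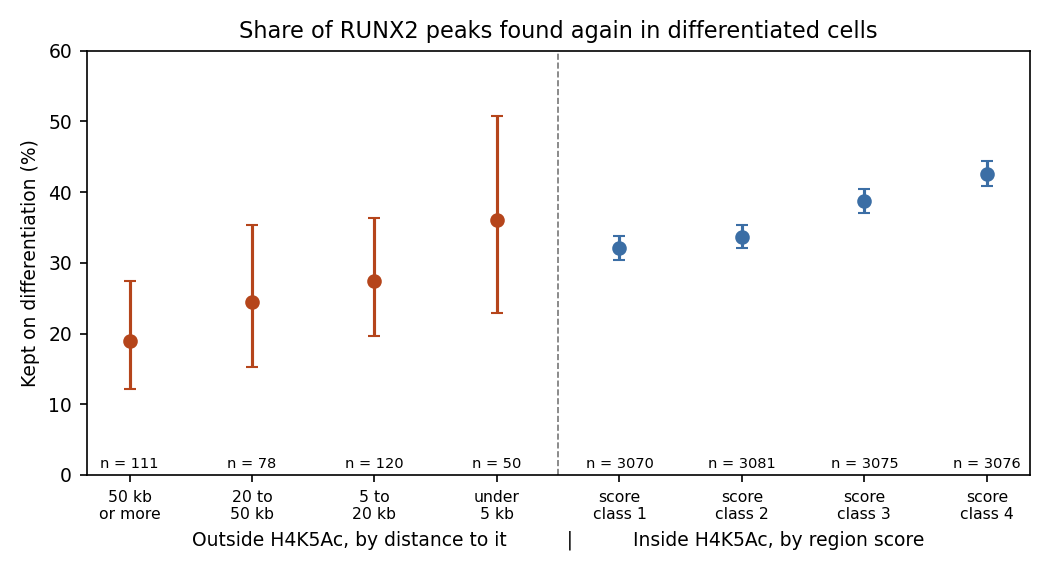
Share (%) of undifferentiated RUNX2 peaks that overlap a differentiated RUNX2 peak, with exact 95% intervals, for sites outside H4K5Ac by their distance to it (left of the dashed line) and for peaks inside by class of the H4K5Ac score (right). The share goes from 18.9% at 50 kb or more to 18 of 50 sites under 5 kb, and from 32.1% to 42.6% over the score classes.

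The kept sites more often gained H4K5Ac. Of the 91, 22 (24.2%) lay in an H4K5Ac region of the differentiated cells, against 24 of the 268 that were not found again (8.96%), a difference of 15.2 points (6.59 to 25.4). The other 69 kept sites were outside H4K5Ac in both states. H3K4me1 of undifferentiated cells was at 69.2% of the kept and 57.1% of the other sites (12.1 points, 0.502 to 22.6). The RUNX motif was in 80.2% and 78.0%, and the interval of the difference included 0 (2.23 points, -8.15 to 10.9).

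The factor C/EBPβ, a basic leucine zipper protein of the osteoblast and adipocyte lineages, was at few of the sites. Its peaks overlapped 31 of 359 (8.64%, 5.94 to 12.0) in undifferentiated cells, against 31.2% of all RUNX2 peaks and 31.8% of those inside H4K5Ac (difference -23.2 points, -25.8 to -19.7). In differentiated cells it was at 22 sites (6.13%), against 14.9% of all RUNX2 peaks and 15.2% of those inside. Both states had it at 13 sites. Of the 31 sites with C/EBPβ, 17 (54.8%) were kept by RUNX2, against 22.6% of the 328 without it, a difference of 32.3 points (14.5 to 48.8). This order is not particular to the sites. Inside H4K5Ac and outside promoters, 39.8% of all 9045 peaks were kept and 33.9% of the 5719 without C/EBPβ. The C/EBP motif was in 7 of the 31 sites with C/EBPβ (22.6%) and in 8.23% of the 328 others, and TGTGGT in 26 of the 31.

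The motif was also counted in RUNX2 peaks of the differentiated cells. Of 6272 such peaks, 329 overlapped no H4K5Ac region of the differentiated cells, and 70 of these overlapped 1 of the 359 sites. Most of the peaks inside H4K5Ac (75.3%), and 47.1% of those outside, were also RUNX2 peaks before differentiation, so the count was made in peaks found in differentiated cells only. There TGTGGT was in 129 of 174 peaks outside H4K5Ac (74.1%, 67.0 to 80.5) and in 56.1% of 1467 inside, a difference with an interval of 10.6 to 24.5 points. For C/EBPβ in undifferentiated cells, 1581 of 15622 peaks lay outside H4K5Ac, and its own motif TTGCNNAA was in 66.6% of these and 38.2% of those inside. These C/EBPβ peaks overlapped a RUNX2 peak in 2.02% of cases, against 28.0% inside H4K5Ac. Promoters were not set aside in the motif counts of differentiated RUNX2 peaks or of C/EBPβ peaks.

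The sites lay away from promoters and apart from other RUNX2 peaks. Within 1 kb of a TSS were 25 of the 359 (6.96%, 4.56 to 10.1), against 25.9% of all RUNX2 peaks and 26.5% of those inside H4K5Ac. In introns were 134 (37.3%), against 31.9% of all, and between genes 192 (53.5%), against 40.7% of all. In exons were the other 8. Outside promoters the median distance to a TSS was 22195 bp at the sites and 27900 bp at the peaks inside. The gene with the nearest TSS carried H3K4me3 at its promoter for 29.5% of the sites and 62.1% of the peaks inside H4K5Ac, and for 33.7% and 68.6% by the list of the differentiated cells.

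Another RUNX2 peak lay within 5 kb of 15 sites (4.18%, 2.36 to 6.80), against 29.3% of all RUNX2 peaks and 30.1% of those inside H4K5Ac (difference -25.9 points, -27.7 to -23.2). The median distance to the nearest other RUNX2 peak was 75749 bp at the sites and 16656 bp at the peaks inside. On the X chromosome were 7 sites, and none on the Y chromosome.

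**Figure D5:**
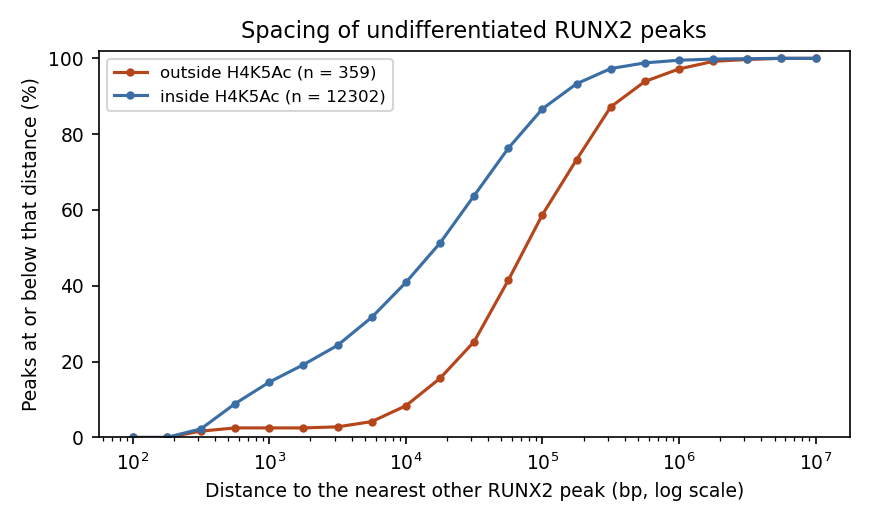
Cumulative share (%) of undifferentiated RUNX2 peaks by distance to the nearest other RUNX2 peak (bp, log scale), for the 359 sites outside H4K5Ac and the 12302 peaks inside. At 10000 bp the curve stands at 8.36% for the sites and 40.9% for the peaks inside.

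A part of the sites lies in sequence that the genome holds more than once, where short reads may not be placed with certainty. At least 1 stretch of 32 bp occurred elsewhere in 71 sites (19.8%, 15.8 to 24.3), against 6.68% of all RUNX2 peaks and 6.30% of those inside H4K5Ac. Over 50% of the stretches were repeated in 22 sites (6.13%) and in 0.366% of the peaks inside. Among the 22 were pairs at Tdrd1, a germ-cell Tudor-domain gene, and at Zc3h7a, a zinc-finger gene, the promoters of the duplicated dynein light chain genes Dynlt1a and Dynlt1b, and sites near the tandem homeobox genes Rhox4a and Rhox3b, named after their values were seen. Sites with repeated sequence were in H3K4me1 in 32.4% and kept in 15.5% of cases, against 67.0% and 27.8% of the 288 sites of unique sequence. The RUNX motif was in 81.7% and 77.8%. The part of read placement in these differences was not tested.

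More of the sites than of the peaks inside H4K5Ac were the only RUNX2 peak of their gene. A TSS within 100 kb was found for 309 of the 359, at 303 genes, and 210 of the 309 (68.0%, 62.4 to 73.1) were the only undifferentiated RUNX2 peak assigned to that gene, against 35.2% of all RUNX2 peaks so assigned. Inside H4K5Ac the share was 34.3% (difference 33.7 points, 28.2 to 38.7). For genes of the osteoblast lists, the share of RUNX2 peaks outside H4K5Ac could not be told from that of all genes. Of the lists of osteoblast genes used, matrix and mineralisation genes had 0 of their 71 RUNX2 peaks outside H4K5Ac, signalling genes of the Wnt, BMP and TGF-β pathways 0 of 83, and osteoclast coupling genes 0 of 39. Osteoblast transcription factors had 1 of 58 and the RUNX family with its partners 3 of 37. Together these 5 lists had 4 of 284 peaks (1.41%, 0.385 to 3.57), against 309 of 10850 (2.85%) for all genes. The interval of the lists included the share of all genes. Of markers of other cell types, chondrocyte genes had 1 of 9 peaks outside H4K5Ac, neural genes 1 of 1, Hox and other Polycomb-type developmental genes 1 of 13, and adipocyte, muscle, haematopoietic, endothelial and housekeeping genes 0 of 6, 4, 1, 6 and 13. Matrix remodelling genes had 1 of 17, and cytoskeleton and focal adhesion genes 2 of 87. As a check of the cell type, promoter H3K4me3 in undifferentiated cells was counted in the same lists, beside 7770 of 22226 genes over all. It was at 20 of 26 osteoblast transcription factors, 13 of 28 matrix and mineralisation genes and 24 of 38 signalling genes. The RUNX family with its partners had it at 8 of 11 genes and the osteoclast coupling list at 5 of 12. Matrix remodelling genes had it at 8 of 15, cytoskeleton and focal adhesion genes at 15 of 19, and Hox and Polycomb-type genes at 2 of 20. The mark was at 2 of 12 adipocyte genes, 1 of 12 muscle genes, 0 of 11 haematopoietic genes and 0 of 12 neural genes. It was at 11 of 12 housekeeping genes, 2 of 14 chondrocyte genes and 1 of 10 endothelial genes.

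Within 100 kb of the TSS of a RUNX partner lay 3 sites, and all of them were kept. The kept share was 25.3% of all 359 sites and 36.5% of all RUNX2 peaks, and 3 sites are too few for a comparison. Another site nearest to Tle1 (chr4:71662301-71662501), 119 kb from its TSS and so outside that limit, overlapped C/EBPβ in undifferentiated cells and was not found again. Tle1 and Tle4 encode Groucho co-repressors and Hdac4 a histone deacetylase that binds RUNX2. The Tle1 site, 3.85 kb from a TSS in an intron and 2.14 kb from H4K5Ac, lay in H3K4me1 and H3K36me3 in both states and overlapped C/EBPβ in undifferentiated cells. The Hdac4 site, 56.4 kb from the TSS, lay in H3K4me1 in both states and held 2 RUNX motifs and a CTCF motif. The Tle4 site (chr19:14694988-14695188), 22.6 kb from the TSS, held 2 RUNX motifs and lay in no mark in either state.

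Among cytoskeleton and focal adhesion genes, the Tns1 site was kept as well. Tns1 encodes tensin 1, which links integrins to actin, and its intronic site, 5.49 kb from H4K5Ac, lay in H3K4me1 and overlapped C/EBPβ in both states. The sites near Fos, an AP-1 subunit (chr12:86788071-86788271), and Mmp9, a gelatinase made by osteoclasts (chr2:164756789-164756989), lay in H3K4me1 in both states and were not found again. Those near Col9a1, a cartilage collagen, Rbfox3, a neuronal splicing factor, and Nkx2-5, a heart homeobox factor, held no TGTGGT and were not found again either.

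The 10 sites that RUNX2 kept in no mark in either state were nearest to Rapgef1, Fermt1, Gm16532, Pou2f2, Gal3st1, Tusc5, Kcnk9, 1110012J17Rik, Adcyap1 and Tle4. Rapgef1 encodes an exchange factor of the small GTPase RAP1, Fermt1 the integrin activator kindlin-1, Pou2f2 a B-cell POU factor, Kcnk9 a potassium channel and Adcyap1 the neuropeptide PACAP. None of the 10 held repeated 32 bp sequence, and 8 held TGTGGT. Pou2f2 and Gal3st1, a galactose sulfotransferase gene, held TGCGGT. C/EBPβ was at the Kcnk9 site only, in undifferentiated cells. The Adcyap1 site (chr17:93557923-93558123) was 852 kb from H4K5Ac and 4528 kb from the next RUNX2 peak.

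None of the 5 sites farthest from H4K5Ac was kept. The kept share was 25.3% of all 359 sites and 18.9% of the 111 at 50 kb or more, and 5 sites are too few for a comparison. The 5 were nearest to Chl1, Gm14401, Gm14409, Gm5356 and Bai3, a brain adhesion receptor. The Gm14401, Gm14409 and Chl1 sites had 48.2%, 64.1% and 60.6% of their 32 bp stretches elsewhere in the genome. The Chl1 site lay in H3K4me3 and overlapped C/EBPβ in undifferentiated cells, and in no list after differentiation. The Bai3 site (chr1:25872085-25872285) was of unique sequence, held 6 RUNX motifs and entered H3K4me1 in differentiated cells. With the nearest TSS within 100 kb, 6 genes had more than 1 site, Cpne2, Kcnk9, Oas3, Opn5, Tdrd1 and Zc3h7a. At Opn5, which encodes the photoreceptor neuropsin, the sites stood 305 bp apart, in H3K4me1 in both states, and neither was kept. At Oas3, an interferon-induced oligoadenylate synthetase gene, they stood 4.34 kb apart, in H3K4me1 in both states, and neither was kept.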

How the data were processed

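The submitters' processing notes name Bowtie, HOMER and the build mm9, with versions and thresholds not given in the sources used here. The lists hold merged peaks, and every peak name records at least 2. The score that the authors deposited read 0 at all peaks of RUNX2 and C/EBPβ, so peak height is unknown, and for marks it only ranked regions within a list. Read depth is unknown, so differences in depth between lists could change every overlap.

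From these, overlaps of at least 1 bp, distances, motifs and 32 bp stretches were computed with Python 3.11.15, pandas 2.3.3 and numpy 2.4.6, and intervals with scipy 1.17.1. The genome was NCBIM37 and the genes were the 22368 of GENCODE vM1 (protein-coding genes and Cebpd), with 70052 TSSs. Promoters were within 1 kb of a TSS, and peaks went to the nearest TSS within 100 kb. The overlap code was tested on simulated data. Peaks on the mitochondrial chromosome were left out.

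The sites, lists, named genes and motifs were chosen with earlier results of these data known. Genes are named where a TSS within 100 kb puts them in a list, where a kept site lies in no mark, where a site is among the 5 farthest from H4K5Ac, or where a gene has at least 2 sites within 100 kb, and 1 site that this rule names is not reported here. Alternatives changed the definition of outside, the overlap, the promoter, the motif window and letters, the gene assignment and repeated sequence.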

Additional observations from a re-analysis of the deposited data

Results flagged for a closer look

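The undifferentiated RUNX2 list held 13 peaks on the mitochondrial chromosome, which were outside every comparison, and the differentiated list held 0. Of the 13, 10 overlapped an H4K5Ac region there. No read counts or untreated background for these peaks were analysed here.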

How the results depend on the processing

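Of 119 alternatives to 16 results, 106 left the value near the main one, 13 moved it and 0 reversed it. For shares, near meant inside the 95% interval of the main value. For the numbers of sites and genes it meant within a set fold of it. All 112 differences from the RUNX2 peaks inside H4K5Ac kept their sign with an interval that left out 0. Joining H4K5Ac regions under 3 kb apart gave the same 359 sites, so that alternative repeats the main values. With only the 75% of H4K5Ac regions with the highest score, 588 peaks were outside, of which 27.0% were in H4K5Ac after differentiation. In that set 5.27% were in H3K9Ac and 70.4% in H3K4me1 of undifferentiated cells, and 10.9%, 79.6% and 3.23% in H3K9Ac, H3K4me1 and H3K4me3 of differentiated cells. With sites of unique sequence only, 67.0% and 78.8% were in H3K4me1 of the respective states. With promoters within 5 kb, 20.1% of the sites were promoters. The RUNX motif share was 59.3% within 50 bp of the centre and 54.6% for TGTGGTT. With the nearest TSS within 20 kb, 178 genes were assigned. No paired analysis was possible because each antibody and state has 1 merged list, and for the same reason no replicate could be left out. Read depth, peak height and the callers' thresholds could not be examined, so a weak H4K5Ac region missed by the caller and its absence cannot be told apart.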
